A study of Mus musculus with 3 samples.

Results

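The genes described here were 8 of the 31053 genes in the count tables, chosen by name as the γδ T-cell receptor genes Trdc, Trdv4, Tcrg-C1 and Tcrg-C2, the scavenger receptor gene Cd163l1, the cytokine genes Il17a and Il17f, and the cytokine receptor gene Il23r. Their detection and co-detection were followed across lymphoid cell types of the mouse pancreas, and 8 of 8 had UMIs in each library. UMIs are unique molecular identifiers, each standing for 1 captured transcript. The study asked how WGP, a particulate β-glucan made from yeast, changes the immune cells of the pancreas. Live CD45+ cells were sorted from digested pancreas of C57BL/6 mice of both sexes, 6 to 8 weeks old, and droplet libraries were read near the 3′ end of transcripts. The 3 libraries were 1 from PBS-treated mice (PBS), 1 from mice 3 days after a single intraperitoneal dose of WGP (3-day WGP) and 1 from mice 7 days after that dose (7-day WGP).

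The number of mice behind a library is not given in the sources used here, and each group had 1 library. Differences between groups therefore had no replicate check and no test, and the intervals below are exact 95% intervals for counting error alone. Values in threes follow the order PBS, 3-day WGP, 7-day WGP. The libraries held 52464690, 56849043 and 48219246 UMIs. The rule of at least 1000 UMIs and at most 30% mitochondrial UMIs kept 5249, 4879 and 4174 barcodes, 14302 in all, with median depths of 5755, 5754 and 8077 UMIs. Between 1 and 9 kept barcodes were shared by a pair of libraries, none of them with Trdc in both.

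γδ T cells carry a receptor made of a γ and a δ chain in place of the α and β chains, and in mice many of them form before birth and settle in tissues. One set of them is poised to make IL-17A and IL-17F, cytokines that act on epithelial and stromal cells to recruit neutrophils and defend barriers, and does so when IL-23 and IL-1β reach it. IL-23 binds a receptor that contains the Il23r chain, and Th17 cells and group 3 innate lymphoid cells respond to it as well.

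The 8 genes lie at 5 places of the GRCm38 genome. Trdc, the only δ constant gene, is on chromosome 14 from 54142851 to 54148868. Trdv4, a δ variable gene, lies 67335 bases before it, from 54074905 to 54075515. The γ constant genes Tcrg-C1 and Tcrg-C2 are on chromosome 13, from 19214103 to 19217024 and from 19304649 to 19307551. Cd163l1, which encodes the scavenger receptor SCART1, is on chromosome 7 from 140218267 to 140231145. Il17a and Il17f are neighbours on chromosome 1, from 20730905 to 20734496 and from 20777146 to 20790617, with 42649 bases between them. Il23r is on chromosome 6 from 67422932 to 67491855. Transcripts of Tcrg-C1 and Tcrg-C2 were 94.1% identical over their alignment, but only 1.68% of the stretches of 91 bases in Tcrg-C1 were also in Tcrg-C2. Reads without a difference between these γ constant genes cannot be assigned, so their split is less certain than their sum.

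RefSeq promoter windows (GRCm38.p6) were matched for 4 of the 8 genes. Those of the neighbouring cytokine genes Il17a and Il17f are shown because both were found together in 12 T, NK or innate lymphoid barcodes. Another 135 such barcodes had Il17a without Il17f. Each window is the 250 bases before the start of transcription, 5′ to 3′ on the gene's own strand. The capitals mark TATAAA, the letters of the TATA box of core promoters, searched on both strands. These letters were present in 12.4% of 32851 windows of the same length, and a match is a description only.
Il17a, chr1:20730655-20730904, + strand: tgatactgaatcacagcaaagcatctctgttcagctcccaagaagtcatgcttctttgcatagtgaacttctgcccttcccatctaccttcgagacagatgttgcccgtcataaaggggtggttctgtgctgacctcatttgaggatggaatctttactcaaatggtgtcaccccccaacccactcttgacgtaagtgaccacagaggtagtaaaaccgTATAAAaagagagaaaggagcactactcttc
Il17f, chr1:20784271-20784520, − strand: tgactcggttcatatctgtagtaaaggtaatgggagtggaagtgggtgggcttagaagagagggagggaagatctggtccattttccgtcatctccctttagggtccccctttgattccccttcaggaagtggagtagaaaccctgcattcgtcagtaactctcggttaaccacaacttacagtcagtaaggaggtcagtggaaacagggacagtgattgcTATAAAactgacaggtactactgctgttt
The match began 31 bases before the start in Il17a and 29 bases before it in Il17f. The RefSeq start of Il17f lies inside the gene bounds given above, which include a longer annotated transcript. The windows of Il23r and Cd163l1 held none of these letters.

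Cells were clustered without the 8 genes, so that their detection did not define the classes, and clusters were named from other markers with the suffix -like. T, NK and innate lymphoid cells (T/NK/ILC) made up 1083, 1742 and 1163 barcodes. A type 17-like class, named from markers such as Blk, Ccr6 and Il1r1, held 122, 369 and 60 barcodes, or 2.32%, 7.56% and 1.44% of the kept barcodes. Its median depths were 3702, 3738 and 5432 UMIs. CD3 genes of the T-cell receptor complex were found in most of this class, with Cd3e in 85.7%, Cd3d in 91.3% and Cd3g in 93.1% of 551 barcodes. A sub-cluster of 19 of these barcodes had Cd3e in none. The other classes were type 1 innate-like T cells (120, 102 and 221 barcodes, named from only 3 raised markers of 10), NK-like (116, 403 and 380), group 2 innate lymphoid or ILC2-like (269, 285 and 14), CD4-like (302, 330 and 204), CD8-like (89, 165 and 143) and regulatory T-like barcodes (12, 17 and 95). Median depths were 4029, 3686 and 5794 UMIs in NK-like, 3719, 4463 and 7506 UMIs in type 1 innate-like T and 3524, 2861 and 5671 UMIs in ILC2-like barcodes. B-like barcodes (1959, 841 and 523), with median depths of 3848, 4230 and 5027 UMIs, served as the class that should lack all 8 genes.

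Trdc was concentrated in the type 17-like class. It was detected in 69.7%, 71.0% and 83.3% of type 17-like barcodes, and its level there was 1485, 1369 and 1745 CPM, the counts of a gene per 1000000 UMIs. In NK-like barcodes it was detected in 28.4%, 19.6% and 25%, but at 94.0, 50.6 and 49.7 CPM, with at most 5 UMIs in a barcode. In type 1 innate-like T barcodes it was detected in 15.8%, 27.5% and 19.9%, at 169, 217 and 170 CPM and with up to 25 UMIs in a barcode. Over all libraries the order of shares was type 17-like (72.1%, interval 68.1% to 75.8%), NK-like (23.0%, 20.3% to 25.9%) and type 1 innate-like T (20.5%, 16.9% to 24.6%), the last 2 with overlapping intervals. CD4-like (3.83%), CD8-like (3.53%) and regulatory T-like barcodes (3.23%) followed with overlapping intervals. ILC2-like barcodes with Trdc were 7 of 568, or 1.23%. The background in B-like barcodes was 18 of 3323, or 0.542%, so the classes above the ILC2-like stood over it. Barcodes of at most 100 UMIs, which mostly hold free RNA, had Trdc at 16.1, 37.0 and 22.2 CPM. Detection outside lymphoid cells was highest in the acinar-like barcodes of 3-day WGP, where 17 of 93 had Trdc, against 0 of 37 in PBS.

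Trdv4 pairs with the γ variable gene Tcrg-V6 in a receptor of fetal γδ T cells. It was detected in 42.6%, 31.7% and 58.3% of type 17-like barcodes, at 276, 149 and 364 CPM. The next class was ILC2-like, with 12.6%, 14% and 28.6% of barcodes (34, 40 and 4) and at most 5 UMIs in a barcode. In NK-like barcodes the shares were 5.17%, 1.99% and 5.79%. CD8-like barcodes had it in 0 of 397, which allows a share of up to 0.756%, and the B-like background was 4 of 3323, or 0.120%.

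Tcrg-C1, the constant gene joined to Tcrg-V4 and Tcrg-V6, was the most often detected of the 8 genes in type 17-like barcodes, at 80.3%, 87.5% and 90%. Its level there was 818, 909 and 938 CPM. ILC2-like barcodes also had it, in 41.6%, 43.2% and 28.6%, at 236, 278 and 90.8 CPM. In contrast to Trdc, it was near absent from NK-like barcodes, with 5 of 899 or 0.556% against 17 of 3323 or 0.512% in B-like barcodes. ILC2-like and NK-like barcodes thus held opposite parts of the receptor pair, Tcrg-C1 with little Trdc in the former and Trdc with little Tcrg-C1 in the latter.

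Tcrg-C2, the constant gene of another γ cluster, was detected in 49.2%, 46.6% and 58.3% of type 17-like barcodes at 281, 327 and 358 CPM. Type 1 innate-like T barcodes came next with 17.5%, 26.5% and 35.7%, at 54.5, 114 and 114 CPM. It was detected in 1.76% of ILC2-like, 0.334% of NK-like and 0.481% of B-like barcodes over all libraries. A constant gene can be transcribed without a rearranged variable gene, and 3′ reads do not tell these apart.

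Cd163l1 followed the type 17-like class more closely than the receptor genes did. It was detected in 54.1%, 61.8% and 71.7% of type 17-like barcodes, at 618, 708 and 862 CPM. NK-like barcodes had it in 0 of 899, which allows a share of up to 0.334%. The shares over all libraries were 1.13% in type 1 innate-like T, 1.26% in CD8-like, 0.957% in CD4-like and 0.880% in ILC2-like barcodes, and the interval of each overlapped that of the B-like background of 0.391% (0.208% to 0.668%). The unnamed T/NK/ILC barcodes had it in 19 of 170.

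Il17a was detected in 21 of 122, 84 of 369 and 27 of 60 type 17-like barcodes, or 17.2%, 22.8% and 45%. Its level there was 186, 313 and 1186 CPM. Type 1 innate-like T barcodes had it in 0 of 443, which allows a share of up to 0.677%, NK-like barcodes in 1 of 899 and B-like barcodes in 3 of 3323. Of the 147 T/NK/ILC barcodes with Il17a, 132 were type 17-like, 9 were among the unnamed T/NK/ILC barcodes whose leading genes were those of B or myeloid cells, 3 were CD4-like, 2 ILC2-like and 1 NK-like. The UMIs were uneven between barcodes. In 7-day WGP the 3 highest T/NK/ILC barcodes held 200 of 413 Il17a UMIs, with 84 in the highest, against 76 of 143 in PBS and 100 of 529 in 3-day WGP.

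Il17f was rare. It was detected in 2, 10 and 6 type 17-like barcodes, at 19.8, 8.69 and 63.7 CPM, with at most 11 UMIs in a barcode. B-like barcodes had it in 0 of 3323, which allows a share of up to 0.0903%. Both cytokine genes were found together in 12 T/NK/ILC barcodes, 10 of them type 17-like.

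Il23r was detected in 37.7%, 27.4% and 23.3% of type 17-like barcodes at 114, 80.1 and 60.7 CPM, and no barcode had more than 4 UMIs. It was in 0 of 899 NK-like and 0 of 443 type 1 innate-like T barcodes. It was also in 6 of 95 regulatory T-like barcodes of 7-day WGP, or 6.32%, and in 10 of the 170 unnamed T/NK/ILC barcodes, or 5.88%. B-like barcodes had it in 4 of 3323, or 0.120%.

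**Figure D1:**
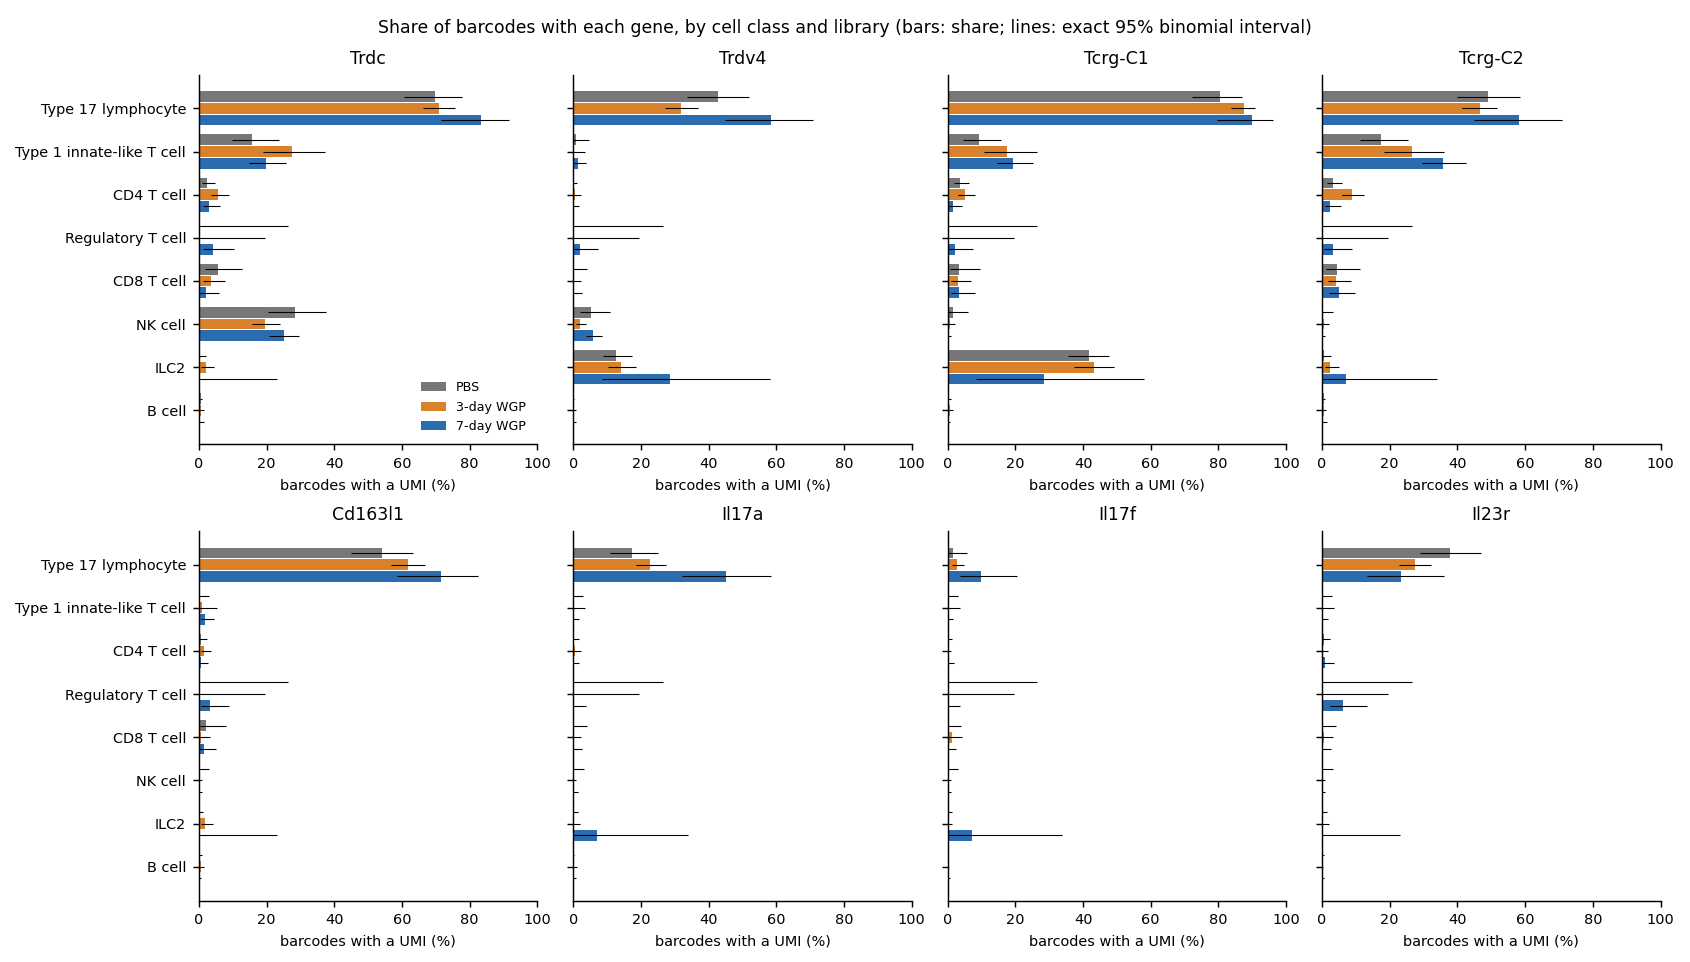
Share of barcodes with at least 1 UMI of each of the 8 genes (horizontal axis, percent) in each lymphoid class (vertical axis), with 1 bar per library and exact 95% binomial intervals as lines. All 8 genes peak in the type 17-like class, Trdc is also seen in NK-like and type 1 innate-like T barcodes, and Tcrg-C1 and Trdv4 are also seen in ILC2-like barcodes.

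The receptor genes were then counted per barcode. Of 551 type 17-like barcodes, 29 had none of Trdc, Trdv4, Tcrg-C1 and Tcrg-C2, 100 had 1, 119 had 2, 207 had 3 and 96 had all 4. Of 899 NK-like barcodes, 658 had none, 231 had 1 and 10 had 2. Of 568 ILC2-like barcodes, 275 had none, 256 had 1 and 34 had 2. Type 1 innate-like T barcodes were split between 259 with none, 103 with 1, 52 with 2 and 29 with 3. B-like barcodes had none in 3294 of 3323. Transcripts of at least 1 αβ constant gene (Trac, Trbc1 or Trbc2) were found in 95.1% of type 17-like, 87.5% of NK-like and 93.1% of ILC2-like barcodes. A count of any of the 3 genes thus did not separate these classes. The single genes differed more. Trac was in 32.8% of type 17-like, 6.90% of NK-like and 4.05% of ILC2-like barcodes, against 82.9% of CD4-like and 87.9% of CD8-like ones. In type 17-like, NK-like and ILC2-like barcodes, Trbc1 was in 56.4%, 80.4% and 48.9%, and Trbc2 in 91.7%, 35.9% and 84.0%.

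Almost every Il17a barcode also held a γδ receptor gene. Of the 147 T/NK/ILC barcodes with Il17a, 143 had at least 1 of the 4 receptor genes, 3 had only an αβ constant gene and 1 had neither. Within the type 17-like class the count was 131 of 132, against 522 of all 551 type 17-like barcodes with a receptor gene. Among single genes, Tcrg-C1 was in 133 of the 147 and in 876 of all 3988 T/NK/ILC barcodes. The αβ constant gene Trbc2 was in 91.7% of type 17-like barcodes, so these counts do not set the receptor type of an Il17a barcode.

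T/NK/ILC barcodes were next split by Trdc, 156, 416 and 213 with it and 927, 1326 and 950 without it. Median depths were 4245.5, 3793.5 and 6220 UMIs with Trdc and 3628, 3733 and 6051.5 UMIs without it. Cd163l1 was in 43.6%, 58.2% and 22.5% of Trdc barcodes and in 0.647%, 0.754% and 0.842% of the rest. Tcrg-C1 was in 57.7%, 69.2% and 35.7% of Trdc barcodes and in 17.6%, 16.5% and 4.21% of the rest. Il17a was in 14.7%, 18.3% and 13.1% of Trdc barcodes and in 0.216%, 1.13% and 0.316% of the rest. Il23r was in 21.2%, 18.0% and 6.57% of Trdc barcodes and in 1.83%, 2.64% and 1.05% of the rest. The share of the T-cell receptor gene Trac went the other way, with 21.8%, 22.8% and 26.8% of Trdc barcodes and 45%, 46.9% and 59.6% of the rest.

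The classes differed in which genes went with Trdc. Among NK-like barcodes with Trdc, Tcrg-C1 was in 1 of 207, Tcrg-C2 in 2 and Cd163l1 in 0, and Cd3e was in 7. Among type 1 innate-like T barcodes with Trdc, Tcrg-C2 was in 54 of 91 and Tcrg-C1 in 41, against 73 and 31 of 352 without Trdc, and Cd163l1 was in 4. Among type 17-like barcodes with Trdc, Tcrg-C1 was in 377 of 397 and Cd163l1 in 325.

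Inside the type 17-like class Trdc, Trdv4 and Cd163l1 marked the same barcodes, while Il23r did not follow them. Cd163l1 was in 81.9% of the 397 barcodes with Trdc (77.7% to 85.5%) and in 7.79% of the 154 without it (4.09% to 13.2%). This gap held in each library, at 74.1%, 84.4% and 82.0% against 8.11%, 6.54% and 20%. Few of the 60 type 17-like barcodes of 7-day WGP lacked Trdc, so the 20% is imprecise. Trdv4 was in 50.4% of barcodes with Trdc and 2.60% without it. Il17a was in 29.5% with Trdc (25% to 34.2%) and 9.74% without it (5.55% to 15.6%). Il23r was in 28.2% with Trdc and 31.8% without it, with overlapping intervals. Trac was in 22.4% with Trdc and 59.7% without it.

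The same class split by Cd163l1 showed a second receptor of the same family on the other side. The gene 5830411N06Rik, which encodes SCART2, was in 4.15% of 337 barcodes with Cd163l1 (2.29% to 6.87%) and in 36.4% of 214 without it (30% to 43.3%). By library the shares were 3.03%, 3.95% and 6.98% with Cd163l1 and 37.5%, 35.5% and 41.2% without it, so the direction was the same in each library. The 7-day shares of this split come from only 60 barcodes, most of them with Cd163l1. Trdv4 was in 57.3% with Cd163l1 and 5.14% without it. Tcrg-V4, a γ variable gene of another IL-17-producing set, was in 1.48% with Cd163l1 and 11.2% without it. Il17a was in 30.3% with Cd163l1 and 14% without it, and by library in 27.3%, 26.8% and 53.5% against 5.36%, 16.3% and 23.5%. Il23r was in 28.8% and 29.9%.

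Variable genes gave the same division. Cd163l1 was in 205 of 218 type 17-like barcodes with Tcrg-V6 or Trdv4, and in 6 of 32 with Tcrg-V4 or Trdv5. Only 2 barcodes held a gene of both sets. Il17a was in 75 of the 218 and in 9 of the 32. Trdv4 barcodes had 5830411N06Rik in 1 of 204, against 91 of 347 without Trdv4. Trdv5 overlaps Trdc on the opposite strand, but only 5 of the 551 barcodes had it.

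For WGP against PBS, levels were compared first over all T/NK/ILC barcodes, as log2 ratios of CPM. A gene was called where the ratio passed 2-fold after 10 CPM was added to both sides. At 3 days 0.285% of 8071 genes were called higher and 0.198% lower, and at 7 days 1.33% were called higher and 1.21% lower. Of the 7 genes in the list that reached 10 CPM, 1 was called at each time.

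Trdc had 198, 316 and 124 CPM over T/NK/ILC barcodes, a log2 ratio of 0.67 at 3 days (0.57 to 0.78) and −0.68 at 7 days (−0.80 to −0.56). Tcrg-C1 had 155, 218 and 49.0 CPM. Its log2 ratio was 0.49 at 3 days (0.38 to 0.61) and −1.66 at 7 days (−1.83 to −1.49), and it was called lower at 7 days. Tcrg-C2 had 45.9, 84.1 and 42.0 CPM. Both γ constant genes and Trdc were thus highest in 3-day WGP. Cd163l1 had 67.5, 146 and 36.8 CPM. Its log2 ratio was 1.11 at 3 days (0.94 to 1.28) and −0.88 at 7 days (−1.10 to −0.66), and it was called higher at 3 days. That call was lost, at 0.74 with log-normalized clustering and 0.79 without ILC2-like barcodes on the scale with 10 CPM added, against 1.01. Il17a had 26.9, 61.8 and 46.4 CPM, at 1.20 (0.93 to 1.48) and 0.79 (0.51 to 1.07) on the log2 scale against PBS, both within 2-fold after 10 CPM was added. At 7 days its direction was the opposite within Xist and within Y-linked barcodes, as given below. Trdv4 had 40.6, 36 and 18.5 CPM. Il23r had 13, 16.5 and 3.71 CPM. Il17f stayed under 3 CPM in each library.

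The share of barcodes with Trdc was also highest at 3 days. After each T/NK/ILC barcode was thinned to 1000 UMIs, it was 9.51% (7.83% to 11.4%), 15.3% (13.6% to 17%) and 8.25% (6.74% to 9.99%), and without thinning 14.4%, 23.9% and 18.3%. The thinned share at 3 days lay above the other libraries, and those of PBS and 7-day WGP overlapped, so the lower Trdc level at 7 days had no matching difference in the share. Free RNA of Trdc was also highest in 3-day WGP, as given above, and its part in the result was not tested. Of the Trdc barcodes of PBS and 3-day WGP, 85 of 156 and 262 of 416 were type 17-like, but only 50 of 213 in 7-day WGP, where 95 were NK-like.

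Within the type 17-like class the receptor genes among the 8 and Cd163l1 stayed within 2-fold of PBS at both times, and Il17a did not. Over the 8348 genes tested there, 0.371% were called higher at 3 days and 2.67% at 7 days, and 0.755% and 4.34% were called lower. Of the 8 genes, 2 were called higher at 7 days, Il17a and Il17f, and 0 at 3 days. Of 3 other γδ receptor genes tested there, 1 was called lower at 7 days and 0 at 3 days. Il17a was at 186 CPM in PBS and 1186 CPM at 7 days, a 6.39-fold difference (log2 2.68, 2.36 to 3.00), and had a log2 ratio of 0.75 at 3 days (0.44 to 1.07). Without the 3 barcodes with most Il17a UMIs of each library, the log2 ratios with 10 CPM added were 1.53 at 3 days and 2.77 at 7 days. Il17f had a log2 ratio of 1.68 at 7 days (0.57 to 2.88), from 11 and 21 UMIs. A single barcode held 10 of the 11 UMIs of PBS, and another held 11 of the 21 of 7-day WGP. The intervals of Il17a and Il17f treat UMIs as independent and do not cover such unevenness between barcodes. The log2 ratios at 7 days were 0.23 for Trdc, 0.20 for Tcrg-C1, 0.35 for Tcrg-C2, 0.40 for Trdv4 and 0.48 for Cd163l1. Il23r had −0.50 at 3 days and −0.90 at 7 days (−1.71 to −0.16).

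Counted as barcodes, Il17a or Il17f was in 18.9% (12.3% to 26.9%), 23.6% (19.3% to 28.2%) and 50.0% (36.8% to 63.2%) of the type 17-like class, and the interval of 7-day WGP lay above the others. After thinning to 1000 UMIs the shares were 9.84% (5.19% to 16.6%), 14.6% (11.2% to 18.7%) and 26.7% (16.1% to 39.7%), and the intervals of 7-day WGP overlapped both others. Free RNA of Il17a in barcodes of at most 100 UMIs was at 1.24, 11.2 and 9.91 CPM, and its part in these shares was not tested. Because the class was small at 7 days, with 60 barcodes against 369 at 3 days, the 27 barcodes with Il17a at 7 days were fewer than the 84 at 3 days.

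**Figure D2:**
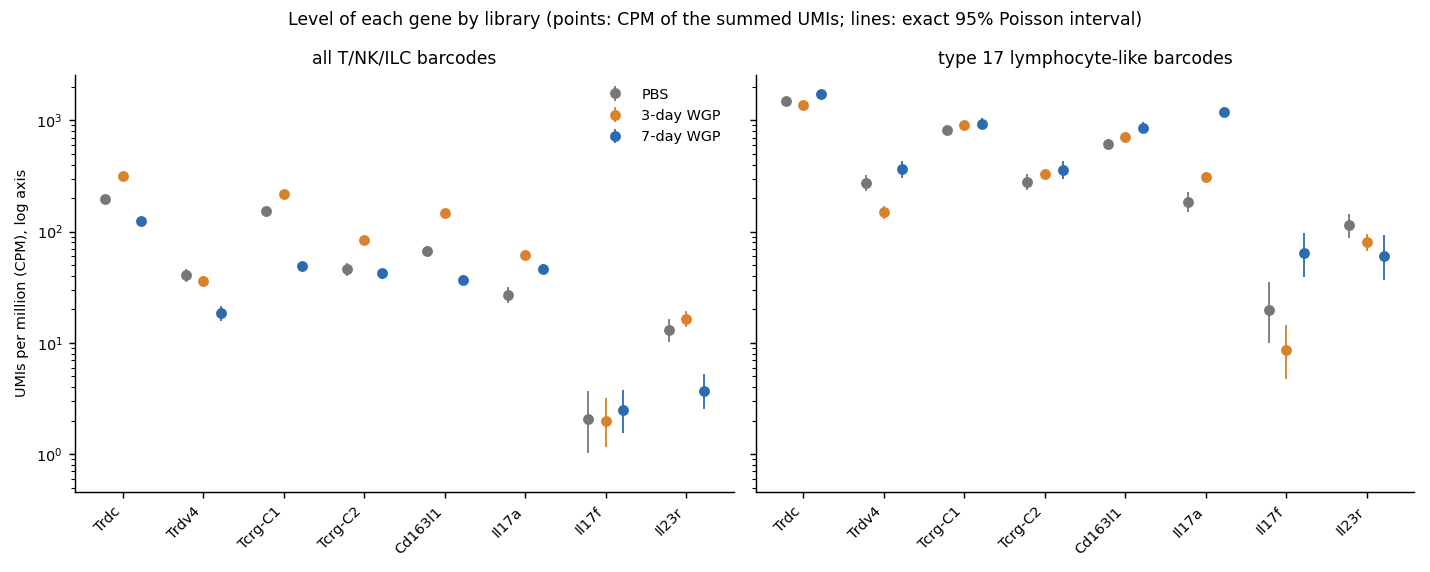
Level of each of the 8 genes as CPM of the summed UMIs (vertical axis, log scale) in each library, over all T/NK/ILC barcodes (left) and over type 17-like barcodes only (right), with exact 95% Poisson intervals. Over all T/NK/ILC barcodes Trdc, Tcrg-C1 and Cd163l1 are highest in 3-day WGP, while inside the type 17-like class Il17a is highest in 7-day WGP.

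The other genes of the pathway were read from pathway lists, as counts past 2-fold among those tested. At 7 days 2.67% of all genes tested in the type 17-like class were called higher and 4.34% lower. Inside this class at 7 days, 2 of 4 tested IL-17 target genes were called higher and 0 lower, with a list median of 1.23 on the log2 scale against −0.03 over all genes. These were Nfkbiz, an IκB family regulator, at 27, 28.6 and 112 CPM, and Saa3, a serum amyloid gene, at 0, 4.97 and 48.6 CPM. Saa3 also led the genes of a macrophage cluster. The macrophage gene Lyz2 was at 4281, 7356 and 10488 CPM in barcodes of at most 100 UMIs. The part of free RNA in the Saa3 level was not tested. Over all T/NK/ILC barcodes at 7 days 1 of 6 target genes was called higher and 3 lower, with a list median of −1.19 against 0.03 over all genes. The shares called over all genes there were 1.33% higher and 1.21% lower. Saa3 was at 2.07, 57.3 and 39.2 CPM there, and the neutrophil genes S100a8, at 141, 141 and 19.0 CPM, and S100a9, at 125, 153 and 11.2 CPM, lay among those lower at 7 days. Of the 15 tested type 17 regulators in the type 17-like class, 1 was called higher at 7 days and 0 at 3 days, against 2.67% and 0.371% of all genes. At 7 days 1 of 2 tested IL-23 and IL-1 input genes and 1 of 3 other type 17 cytokine genes were also called higher in this class. Of 17 tested homing and surface genes there, 1 was called higher and 1 lower. The cytokine gene Il22 was found in 8 T/NK/ILC barcodes, 6 of them type 17-like, and 1 barcode of 7-day WGP held 54 UMIs of it.

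Sex-linked transcripts differed between the libraries. Barcodes with Xist and no Y-linked UMI made up 38.8%, 9.82% and 28.9% of kept barcodes, and those with a Y-linked UMI and no Xist 33.1%, 51.4% and 44.7%. Trdc was in 17.1%, 9.39% and 21.3% of Xist T/NK/ILC barcodes and in 13.9%, 28.0% and 19.6% of Y-linked ones. The higher Trdc share of 3-day WGP was thus seen in Y-linked barcodes and not in Xist ones. Type 17-like barcodes were 1.28%, 1.67% and 0.993% of all Xist barcodes and 2.94%, 7.69% and 1.77% of all Y-linked ones. Il17a or Il17f was in 15.7%, 24.4% and 42.4% of 51, 193 and 33 Y-linked type 17-like barcodes, and in 23.1%, 12.5% and 25% of only 26, 8 and 12 Xist ones. The log2 ratio of Il17a at 7 days in the class was 1.91 in Y-linked and 1.17 in Xist barcodes (−0.28 to 2.58), with 10 CPM added. Over all T/NK/ILC barcodes the log2 ratio of Trdc at 3 days, with 10 CPM added, was −0.81 in Xist barcodes, the opposite direction, that of Cd163l1 at 3 days was −0.08 in Xist and 0.62 in Y-linked barcodes, and that of Il17a at 7 days was −0.11 and −0.33. Sex and treatment cannot be told apart where a library holds few barcodes of 1 sex.

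**Figure D3:**
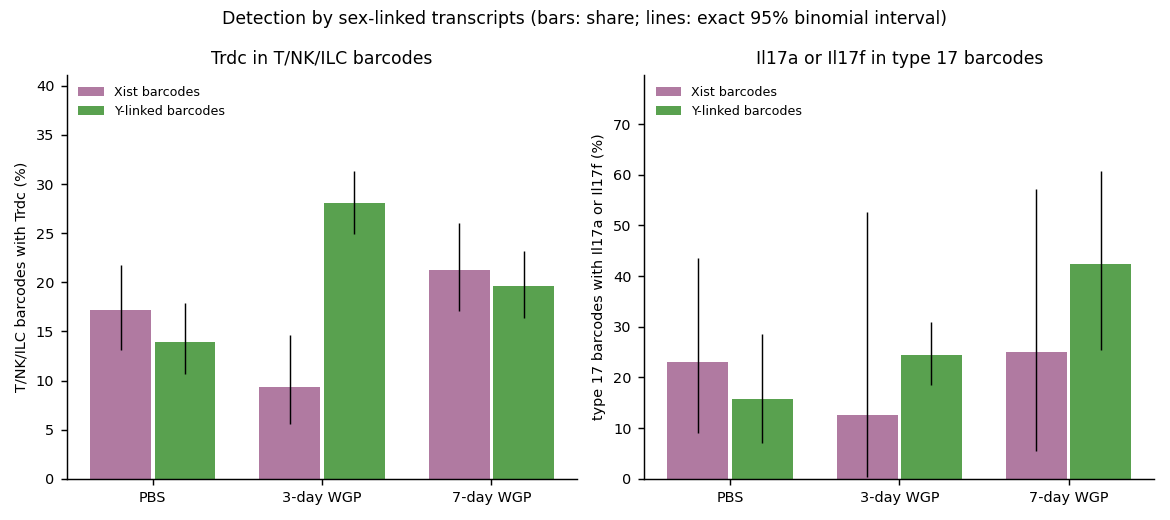
Share of T/NK/ILC barcodes with Trdc (left, percent) and of type 17-like barcodes with Il17a or Il17f (right, percent) in each library, for barcodes with Xist only and with Y-linked transcripts only. Bars are shares and lines exact 95% binomial intervals. In 3-day WGP the Trdc share is 28.0% in Y-linked and 9.39% in Xist barcodes.

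One comparison could be repeated in each library, although the libraries came from different treatments and were not replicates of a condition. The fit estimated a Trdc difference common to the libraries and did not model how it changed with treatment. UMIs of T/NK/ILC barcodes with and without Trdc were summed in each library and tested with edgeR's quasi-likelihood test, with the library as a block, so that n = 3 pairs of sums. Of 10329 genes tested, 3.13% were higher (323 genes) and 3.12% lower (322 genes) at an adjusted p of 0.05, and Trdc itself was left out. The sums mix classes, since 397 of the 785 Trdc barcodes were type 17-like, 207 NK-like and 91 type 1 innate-like T. Nearly all ILC2-like barcodes (269, 285 and 14) were on the side without Trdc. The part of class make-up in the differences below was not tested.

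All 7 other genes of the list were higher with Trdc. Cd163l1 rose most, from 2.91, 2.33 and 2.80 CPM without Trdc to 411, 579 and 176 CPM with it (log2 7.01 ± 0.23 SE, adjusted p = 2.90e-08). Il17a rose from 1.79, 20.8 and 1.68 CPM to 161, 185 and 230 CPM (log2 4.65 ± 0.48 SE, adjusted p = 0.000108). Trdv4 had a log2 difference of 3.79 ± 0.14 (SE), Tcrg-C1 of 3.35 ± 0.24, Il23r of 2.84 ± 0.24 and Tcrg-C2 of 2.65 ± 0.13, with adjusted p-values of at most 1.83e-05 in edgeR. These 6 were higher in each of the 3 libraries. Il17f had 2.65 ± 0.68 (SE, edgeR adjusted p = 0.0390), but in PBS it was lower with Trdc, at 1.19 against 2.24 CPM, and it lost its call with DESeq2 (adjusted p = 0.145).

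Other γδ receptor genes moved with Trdc and αβ genes against it. Of 4 tested γδ receptor genes, 3 were higher, Tcrg-V6 (log2 3.93), Tcrg-V1 (2.50) and Tcrg-C4 (1.74), and Tcrg-V4 had 2.01 without passing the test (edgeR adjusted p = 0.0613). All 3 αβ constant genes were lower, Trac by most (log2 −1.98), then Trbc2 (−0.80) and Trbc1 (−0.60). After thinning Trbc2 and Trbc1 lost their calls, with adjusted p-values of 0.152 and 0.196 in edgeR, and Trbc2 was at −0.33. The medians of these lists were 2.25 and −0.80 against 0.01 over all genes tested.

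Of 18 type 17 regulators 6 were higher and 2 lower. The transcription factor gene Sox13 had a log2 difference of 5.71, the kinase gene Blk 4.13 and Zbtb16, which encodes PLZF, 2.25. Gata3, a factor of type 2 lymphocytes, fell by 1.23 on the log2 scale and Id3 by 0.85, and both lost their calls under some of the other settings. By library Gata3 had −2.14, −1.08 and −0.21 with 10 CPM added. Of 10 receptors for the IL-23 and IL-1 inputs, 3 were higher, Il1r1 (log2 3.37), Il12rb1 (1.06), the partner chain of Il23r, and Il18r1 (0.92), and Il6ra, Il6st and Il21r were lower. After thinning Il6st lost its call (edgeR adjusted p = 0.0804), as did Il21r (0.873, at −0.24), and each lost it under 1 other setting. The input cytokine genes Il6, Tgfb1 and Il1b did not pass the test, and the lowest of their adjusted p-values in edgeR was 0.271, for Tgfb1. Il17re, a receptor chain for IL-17C, was higher (2.66) and Il17rb, the IL-25 receptor chain, was lower (−4.73).

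Of 17 homing and surface genes 7 were higher and 3 lower. The SCART2 gene 5830411N06Rik was higher (log2 2.84), although inside the type 17-like class it was in 14.9% of barcodes with Trdc and 21.4% without it. After thinning it had 0.89 and lost its call (edgeR adjusted p = 0.373). Cxcr6, a chemokine receptor of tissue T cells, had 1.34 and the leukotriene receptor gene Ltb4r1 1.18, and Cd5 fell by 1.81. Ltb4r1 lost its call with DESeq2 (adjusted p = 0.340) and Cd5 after thinning (edgeR adjusted p = 0.0505). Of 7 tested IL-17 target genes 5 were lower, led by S100a8 (−5.36) and S100a9 (−5.03), and Nfkbiz, called higher at 7 days in the type 17-like class, was lower with Trdc (−1.44) and lost that call with DESeq2 (adjusted p = 0.167). S100a8 and S100a9 define neutrophils, and myeloid genes led 1 of the unnamed T/NK/ILC sub-clusters. The cytokine gene Csf2 was lower (−1.76), and Il22 had 3.73 without passing the test (edgeR adjusted p = 0.0653).

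Over all genes other than the 8, those of the lists included, the 10 largest differences with Trdc in edgeR were Cdh10, Sox13, Abi3bp, Ablim3, Tdrd9, Nxnl2, Kcnk1, Bcl2a1a, Tns4 and Cryba4. The cadherin gene Cdh10 had 74 UMIs with Trdc and 0 without it, at least 94.5-fold higher against a floor of 3 UMIs over the group. Abi3bp had a log2 difference of 5.14, Kcnk1, a potassium channel gene, 4.32 and Tns4 4.23. The 10 largest differences the other way were Penk, Runx1t1, Ttn, Mcpt8, Ccl1, Gm4208, Tmie, Il5, Igfbp7 and Csf1. Penk, an enkephalin gene, had 0 UMIs with Trdc and 176 without it, at least 15.3-fold lower. Il5, a cytokine gene of ILC2, had −5.60 and the chemokine gene Ccl1 −7.08. Runx1t1, Mcpt8 and Penk lost their calls with DESeq2, with adjusted p-values of at least 0.354. Both sets were chosen among genes with the same direction in each library, and Kcnk1 and Sox13 were among the markers used to name the type 17-like class. So were Blk, Il1r1, Il17re, Il18r1 and Ltb4r1, given above as higher with Trdc. Il5, Gata3 and Il17rb, lower with Trdc, were among the markers used to name the ILC2-like class.

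**Figure D4:**
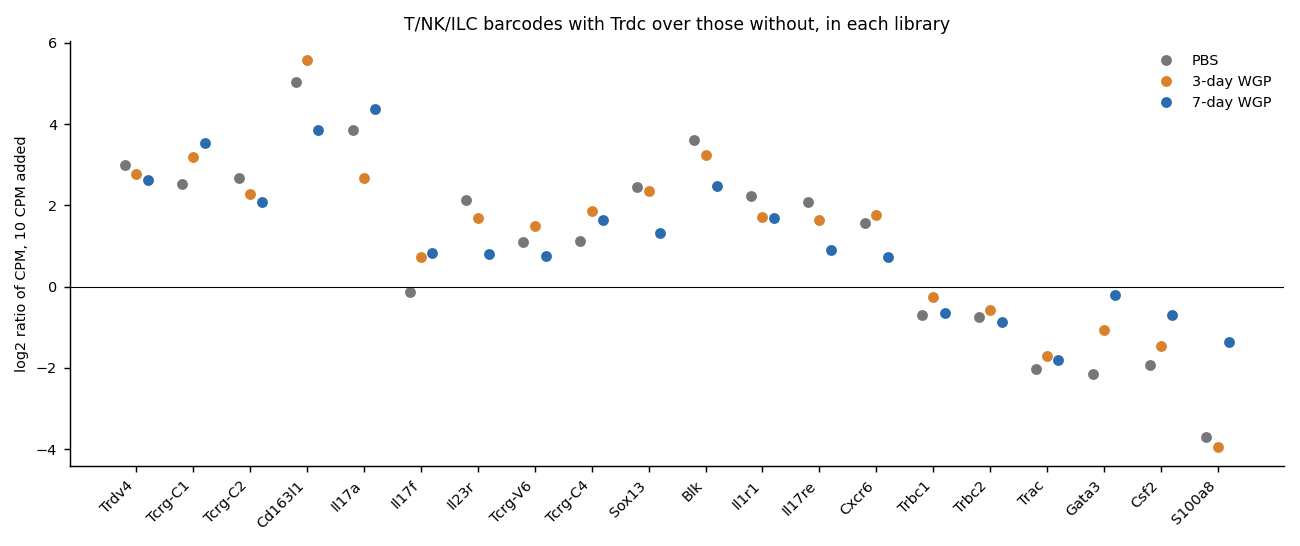
Log2 ratio of CPM in T/NK/ILC barcodes with Trdc over those without it, with 10 CPM added to both (vertical axis), for 7 of the genes described and 13 genes of the pathway lists (horizontal axis), 1 point per library. The added CPM pulls the ratios of low genes toward 0. Cd163l1 has the highest points in each library except 7-day WGP, where Il17a is higher, and Trac lies below 0 in each.

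The genes whose levels were most like those of Trdc, Cd163l1 and Il17a were ranked by Pearson correlation of log2 CPM over 43 sums of a class in a library, from 16 classes. These sums share libraries and classes, so the values are descriptions. For Trdc the first 5 were Prrt1 (r = 0.911), the γ variable gene Trgv2 (0.888), 2010300C02Rik (0.886), Nebl (0.878) and Kcnk7 (0.854). For Cd163l1 they included Miat (0.955), Prr29 (0.949), Gm9961 (0.946) and Ly6g5b (0.943). For Il17a they were Serinc2 (0.978), Tcrg-V6 (0.972), Gm9961 (0.970), Ablim3 (0.967) and Arnt2 (0.965).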

How the data were processed

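Per the study's methods, the authors sorted live CD45+ cells, made 10x 3′ libraries and ran Cell Ranger 3.1.0 with the mm10 genome. The deposited files hold raw UMI counts per gene and barcode, 1 matrix per library, with no normalization. Barcodes with at least 1000 UMIs and at most 30% mitochondrial UMIs were kept. Seurat 5.3.0 with sctransform 0.4.2 clustered them on 3000 variable genes and 30 components. The 8 genes, other γδ receptor genes with symbols starting in Tcrg- or Trd, and Il22 were left out. Symbols starting in Trgv, such as Trgv2, were not covered by this rule. Clusters were named from marker lists, and the naming thresholds (a mean log2 of 1 or 0.8, 3 raised markers and a lead of 0.5) were set after the clusters were seen. In the first clustering a wider lead was required where the next list also scored high. Shallow clusters without a marker of their best list among their leading genes stayed unnamed. The members and lists were chosen with earlier results of these data known. The named genes were the members, the genes past the test in each list (at most 4 each way), the 10 largest differences each way that had the same direction in each library, and the 5 genes most like Trdc, Cd163l1 and Il17a. The other genes named, among them 5830411N06Rik, Tcrg-V4 and Trdv5 inside the type 17-like class, Saa3 and Il22, were chosen after their values were seen. Shares were given with exact binomial and CPM with exact Poisson 95% intervals, and a count of 0 was given a limit of 3 counts. PCR duplicates were collapsed by UMI, and intervals cover counting error only. Doublets were not removed, because the automatic threshold of the caller marked at most 1 barcode a library, and an alternative removed 220, 190 and 139.

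UMIs of Trdc and other T/NK/ILC barcodes were summed per library and tested with edgeR 4.0.16 (quasi-likelihood, Benjamini-Hochberg), with the library as a block and a threshold of 0.05. Tested on simulated data for 10330 genes of that comparison, the test recovered 69.0% of 2-fold and 99.0% of 4-fold changes, and 2.33% of its calls were false. The simulated sums shared a mean profile and a fixed dispersion, and only genes above a minimum mean count were changed. The libraries of the data differ in their classes, so these rates cannot be carried over to the real comparison. Alternatives were DESeq2 1.42.0, other size factors, no count filter, stricter filters on UMIs and mitochondrial share, thinning, log-normalized clustering, doublets removed, 2 Trdc UMIs in place of 1, and leaving out each library. Splits by sex-linked genes, the sums without ILC2-like barcodes and the sums without the highest Il17a barcodes were chosen after seeing the data. No column of per-sample values was left unused. Results for 1 gene that the rule names are not reported here.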

Additional observations from a re-analysis of the deposited data

Results flagged for a closer look

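The 2 times after WGP gave opposite signs in all T/NK/ILC barcodes for 3 genes whose intervals left out 0 at both times. Trdc had a log2 ratio to PBS of 0.67 at 3 days and −0.68 at 7 days, Tcrg-C1 had 0.49 and −1.66, and Cd163l1 had 1.11 and −0.88. At 7 days the type 17-like class also had the opposite sign to all T/NK/ILC barcodes, with 0.23 for Trdc, 0.40 for Trdv4 and 0.48 for Cd163l1. These differences were not tested, since each group had 1 library.

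Barcodes of at most 100 UMIs, which the comparisons did not use, held more of some genes after WGP than in PBS. Trdc was at 37.0 CPM in 3-day WGP against 16.1 CPM in PBS, and Tcrg-C1 at 23.1 against 13.9 CPM. Cd163l1 was at 20.9 CPM in 7-day WGP against 12.9 CPM, and Il17a was at 11.2 CPM in 3-day WGP and 9.91 CPM in 7-day WGP against 1.24 CPM.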

How the results depend on the processing

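No paired analysis was possible because each group had 1 library, and the comparison by Trdc already had the library as a block. Log2 ratios here have 10 CPM added. With log-normalized clustering, whose T/NK/ILC set lacks an ILC2-like cluster that stayed unnamed, Trdc had 0.37 at 3 days and −0.98 at 7 days, Il17a 1.02 at 3 days, past 2-fold where the reported 0.96 was not, Cd163l1 0.74 at 3 days and Tcrg-C1 −1.22 at 7 days. Without ILC2-like barcodes Trdc had 0.43 and −0.98, Cd163l1 0.79, Tcrg-C1 −1.27 and Il17a 0.31 at 7 days. In Xist barcodes Trdc had −0.81 and −0.40, Cd163l1 −0.078 at 3 days and Il17a −0.42 and −0.11, each in the opposite direction except Trdc at 7 days. In Y-linked barcodes Trdc had −0.85 and Tcrg-C1 −1.65 at 7 days, Cd163l1 0.62 at 3 days and Il17a 0.63 and −0.33, the latter in the opposite direction. For Il17a in the type 17-like class, Xist barcodes had −0.95, in the opposite direction, and 1.17, Y-linked barcodes 1.91 at 7 days, and leaving out the 3 highest barcodes gave 1.53 at 3 days. The cause was not tested.

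The thinned Trdc share of T/NK/ILC barcodes was 13.1% in PBS and 18.8% in 3-day WGP with log-normalized clustering, 12.7% and 18.1% without ILC2-like barcodes, and 5.52% in Xist barcodes of 3-day WGP. Without thinning it was 14.4%, 23.9% and 18.3%. The Il17a or Il17f share of the type 17-like class was 9.84%, 14.6% and 26.7% after thinning, and 12.5% and 25% in Xist barcodes of 3-day and 7-day WGP. With at least 2 Trdc UMIs, Tcrg-C1 was in 70.0%, 86.2% and 56.2% and Cd163l1 in 54.2%, 74.0% and 35.4% of Trdc barcodes, and Il17a in 23.2% and 20.8% after 3 and 7 days. After thinning, Tcrg-C1 was in 42.7% and 62.4% in PBS and 3-day WGP, Cd163l1 in 30.1% and 29.2% in PBS and 7-day WGP, and Il17a in 8.74% and 13.9% in PBS and 3-day WGP.

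With Trdc against other barcodes, DESeq2 gave 175 higher and 112 lower genes in place of 323 and 322, thinning gave 206 higher, and no filter on low counts gave 585 lower. Leaving out 1 library gave 235 to 494 higher and 184 to 515 lower genes: 184 lower without PBS, 195 lower without 3-day WGP, and 494 higher and 515 lower without 7-day WGP. Of the single genes, 470 values under these settings kept direction and side of the threshold and 25 lost the call. The small class at 7 days, 60 barcodes, limits the precision of its shares.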
